A study of Arabidopsis thaliana with 6 samples.

Results

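Of the 32548 Arabidopsis thaliana genes listed, 58 were nearly lost in seedlings labelled epl1a/b. A gene belonged to the set when both wild type libraries held at least 30 normalised read counts and the larger epl1a/b value was under 1/8 of the smaller wild type value. Of the 17989 genes that reached 30 in both wild type libraries, 72 met this rule, which is 0.400%, and 14 of the 72, iron uptake and light-harvesting genes among them, were left out by name. The members were thus chosen by their genotype values, so their genotype differences are given as a description, without a test. With the genotypes exchanged, the same rule found 67 genes. The members comprise 56 protein-coding and 2 noncoding genes. Chromosomes 1 to 5 hold 11, 10, 12, 13 and 12 of them, out of 8656, 5174, 6435, 4921 and 7362 listed genes.

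Total RNA from 2-week-old seedlings on Murashige and Skoog medium plates, kept at 23 °C in cycles of 16 h light and 8 h dark, was sequenced in 6 libraries. There were 2 libraries of the genotype labelled epl1a/b(-/-), 2 of wild type Col-0, 1 of Col-0 plates wrapped in foil for darkness and 1 of Col-0 in light. The alleles behind the epl1a/b label, the length of the dark treatment and the number of seedlings per library were not stated in the labels, and no label states that replicates are separate cultures, so their spread may be technical. Both epl1a/b titles start with H4K5Ac, which is a histone mark, although total RNA is given as the molecule, and every epl1a/b value below rests on reading those libraries as RNA-seq.

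EPL1A and EPL1B are the plant relatives of Enhancer of polycomb, a subunit that holds together the core of NuA4, a complex that acetylates the tails of histone H4 and of the H2A family. Acetylated histone tails are a mark of transcribed chromatin. Several of the annotated members work in the chloroplast, above all in the NDH complex, which passes electrons from ferredoxin back to plastoquinone in the thylakoid membrane and so takes part in cyclic electron flow around photosystem I. Its subunits are encoded partly by the plastid and partly by the nucleus, and further nuclear proteins are needed for its assembly.

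EPL1A had 93.8 and 79.2 normalised counts in the epl1a/b-labelled libraries, against 282 and 225 in wild type. EPL1B had 4656 and 4399 in the epl1a/b-labelled libraries, against 335 and 351 in wild type. The 2 genes thus moved in opposite directions, and a transcript level does not show whether protein is made, so the genotype is named by its label throughout.

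Depth was almost equal between genotypes, from 18796289 to 19088784 recovered reads per library, while the dark library held 18798088 counts and the light library 27831231. The deposited normalised values used here are scaled and their totals were not equal. They summed to 16677372 and 16668568 in the epl1a/b-labelled libraries, against 19841584 and 19527327 in wild type. All 5 shoot markers and all 5 root markers were above 0 in all 4 genotype libraries, so both organs of a seedling were represented. The summed shoot markers came to 318323 and 326349.6 normalised counts in the epl1a/b-labelled libraries, against 613699.9 and 554552 in wild type. Nearly all of this was RBCS1A, RCA and CA1, while FAMA and GL1 had log2 differences (epl1a/b minus wild type) of 0.01 and -0.91. The summed root markers came to 83208 and 91017 in the epl1a/b-labelled libraries, against 37892 and 46023 in wild type, most of it PYK10, a root β-glucosidase. The rise in this sum was that of PYK10, at a log2 difference of 1.09. CASP1, COBL9 and MYB36 had log2 differences of -0.82, -0.93 and -0.22, and GPAT5 one of 0.33, so the root markers did not move together. The part of these shifts in the members' values was not tested, and in whole seedlings fewer cells of a type cannot be told apart from less RNA per cell. A test over the 23658 genes that reached 1 normalised count in 2 or more libraries (limma, Benjamini-Hochberg adjusted p under 0.05) called 24.1% of genes lower and 22.5% higher in epl1a/b, with a median log2 difference of 0.02.

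Across the 58 members, means ran from 0 to 166 normalised counts in the epl1a/b-labelled libraries, with a median of 10.7, and from 34.0 to 4199.9 in wild type, with a median of 198. The log2 difference, epl1a/b minus wild type on the log2(value + 1) scale, lay between -9.44 and -2.98 with a median of -4.24. This scale understates the change of genes with few counts. All 58 members passed the filter of the test over all genes, and by the rule the genotypes overlapped for none of them. In 30 members the larger epl1a/b value was under 1/16 of the smaller wild type value, and in 28 it lay between 1/16 and 1/8. Replicates agreed less well in a few: the wild type libraries differed by over 1.5-fold in 5 members, most in CYP82C4 at 2.35-fold, and the epl1a/b-labelled libraries of the uncharacterised gene AT2G14247 differed by 6.78-fold.

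**Figure D1:**
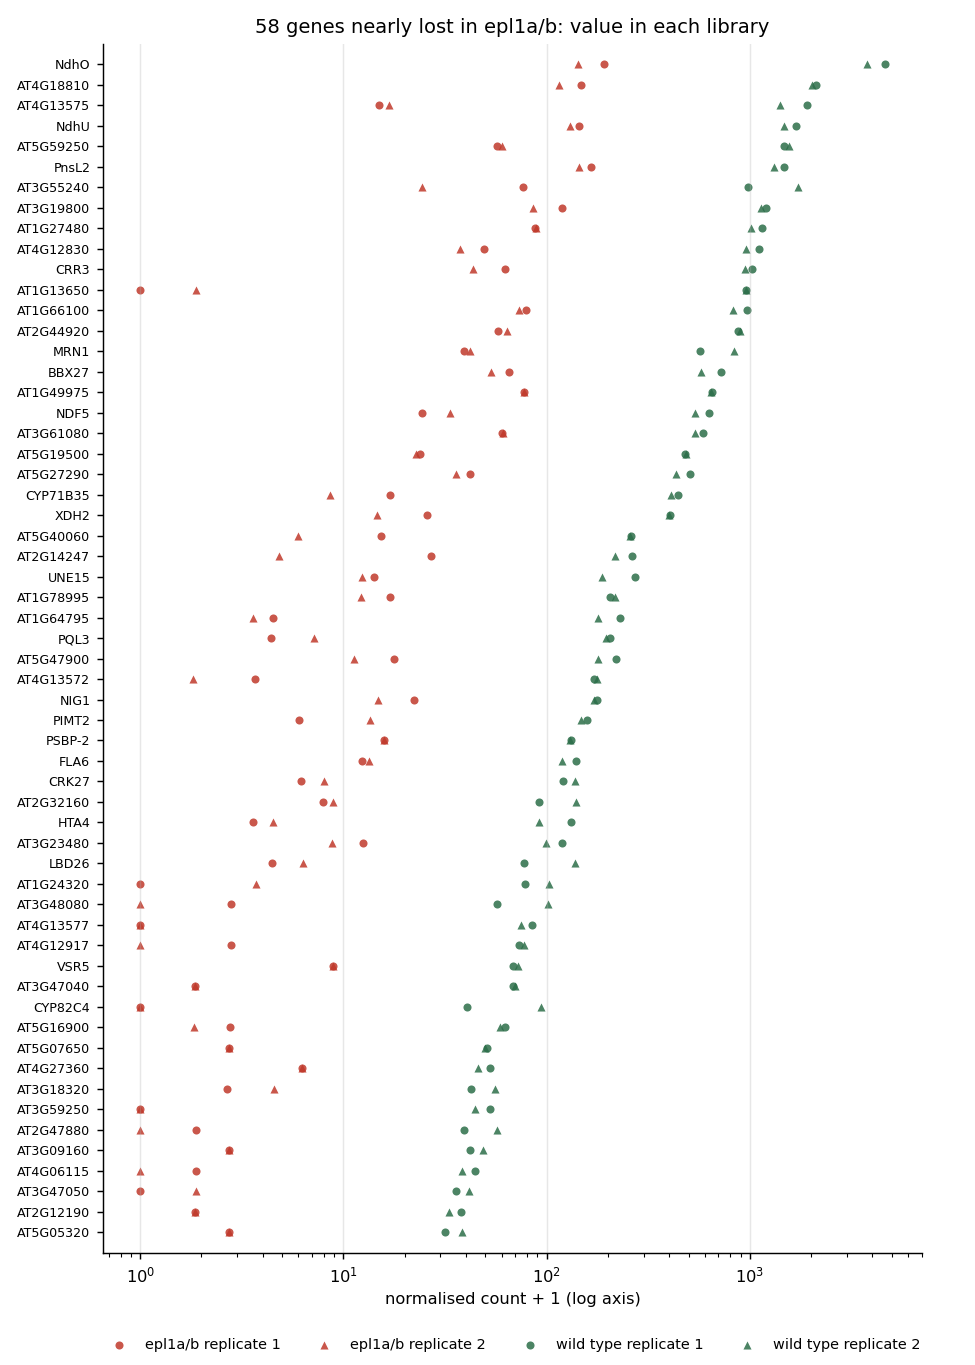
Normalised counts plus 1 of the 58 members on a log axis, 1 row per gene in order of wild type mean, with circles for replicate 1 and triangles for replicate 2 of epl1a/b (red) and wild type (green). In each row both red points lie left of both green points, as the rule requires, and the red points range from 0 reads (at 1 on this axis) to 190.4 normalised counts in NdhO.

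The rule cuts a continuum. Just inside the limit of 1/8 lay AT2G14247 with a ratio of the larger epl1a/b to the smaller wild type value of 0.121, the calcium-binding transcription factor NIG1 at 0.124 and the NDH subunit PnsL2 at 0.125. Just outside lay the hydrolase-family gene AT1G52510 at 0.126, the noncoding AT3G06955 at 0.128 and HCF101, a chloroplast iron-sulphur cluster assembly factor, at 0.131. At the limit of 30 counts, AT5G05320, AT2G12190 and AT3G47050 were inside with smaller wild type values of 30.7, 32.2 and 34.9. AT1G74875, AT2G35075 and AT1G13608 were outside with 22.9, 28.1 and 28.7.

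A group of 6 members lies together on chromosome 4, between positions 7879558 and 7898499 of the TAIR10.1 assembly, a stretch of 18.9 kb that holds 10 listed genes. The 6 are UNE15, annotated as a late embryogenesis abundant (LEA) family protein, the histone H2A gene HTA4, the uncharacterised protein genes AT4G13572, AT4G13575 and AT4G13577, and the noncoding AT4G06115. Summed over the 6, the epl1a/b-labelled libraries held 74 reads, against 4368 in wild type.

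AT4G13575 had 13.9 and 15.8 normalised counts in the epl1a/b-labelled libraries, against 1915 and 1399 in wild type, which is 112-fold lower in the mean. AT4G13572 had 2.67 and 0.814 in the epl1a/b-labelled libraries, against 170.0 and 176 in wild type, 99.4-fold lower on 4 epl1a/b reads in all, with 213-fold without epl1a/b replicate 1 and 64.8-fold without replicate 2. AT4G13577 had 0 reads in both epl1a/b-labelled libraries, against 83.3 and 73.7 normalised counts in wild type. Set against a floor of 3 reads per library, AT4G13577 was at least 30-fold lower, a bound that covers counting error only, as do all intervals here. HTA4, whose product is a core histone, had 2.58 and 3.52 in the epl1a/b-labelled libraries, against 131 and 90.5 in wild type, 36.3-fold lower. UNE15 had 13.2 and 11.3 in the epl1a/b-labelled libraries, against 271 and 186 in wild type, 18.7-fold lower. AT4G06115 had 1 read over both epl1a/b-labelled libraries, against 77 in wild type, a ratio of 0.0108 after scaling for library size (95% exact interval 0.000271 to 0.0622). All 6 were therefore low in both epl1a/b-labelled libraries, and wild type replicate 1 was above replicate 2 in 5 of them, with AT4G13572 the exception.

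Of the other 4 listed genes in the stretch, 3 (AT4G06105, MIR5996 and MIR3932b) were listed at 0 in all 4 genotype libraries. The fourth, the microRNA gene MIR841a, had 0.892 and 0 in the epl1a/b-labelled libraries, against 9.48 and 7.28 in wild type. All 4 lie within the bounds of a member: AT4G06105 and MIR5996 in UNE15, MIR841a in HTA4 and MIR3932b in AT4G13575. Strand use in counting is not stated, so their reads cannot be told apart from those of the member around them. Genes flanking the stretch had smaller differences, in both directions. On the left MIR397b and MIR857 were not called, AT4G13550, a putative triglyceride lipase gene, was lower by limma with a log2 difference of -0.87, and SMAP1 was not called at 0.02. On the right AT4G13580, a dirigent-like gene, was lower at -0.95 and AT4G13590 lower at -2.06, while AT4G13600 was not called at 0.72. AT4G13540, on the left, was higher at 0.87.

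**Figure D2:**
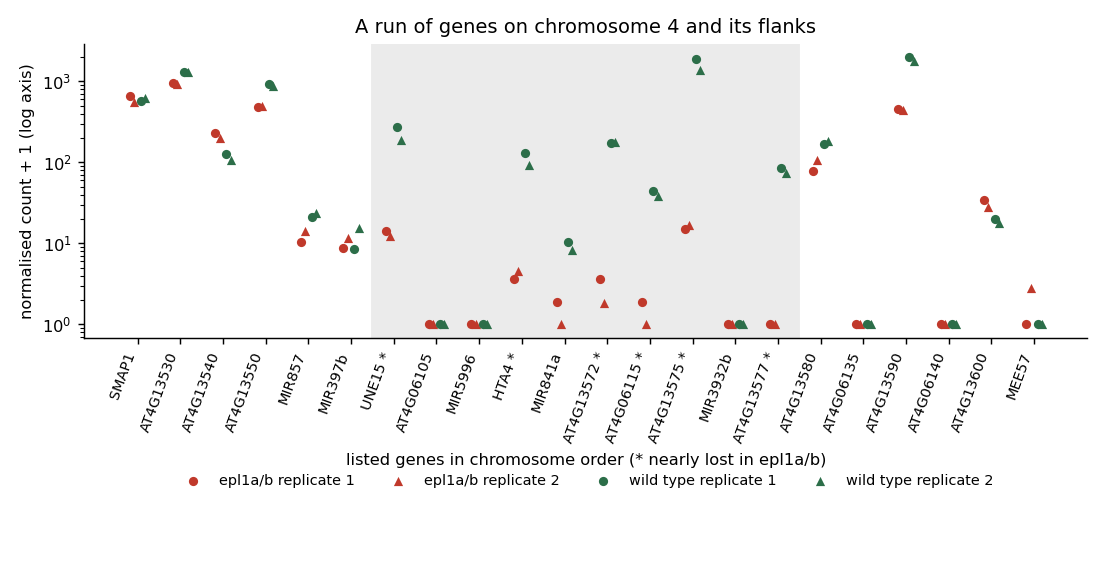
Normalised counts plus 1 on a log axis for the listed genes in chromosome order from SMAP1 to MEE57, with epl1a/b replicates in red, wild type replicates in green and the 18.9 kb stretch shaded. The 6 starred members, such as AT4G13575 at 13.9 and 15.8 in epl1a/b against 1915 and 1399 in wild type, sit between flanking genes whose red and green points lie closer together, and points at 1 are genes listed at 0.

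The promoter windows of AT4G13575 and UNE15 are shown because AT4G13575 had the most wild type reads in the stretch and both windows hold a GATAAG, a motif compared over all members further on. Each window runs from 250 bases before to 50 bases after the annotated gene start, 5′ to 3′ on the gene's strand, in the RefSeq TAIR10.1 assembly. The windows are chr4:7893712-7894011 (minus strand) for AT4G13575 and chr4:7883877-7884176 (minus) for UNE15. Capitals mark GATAAG, the core of the I-box found in many light-regulated promoters, or its reverse complement CTTATC.
AT4G13575: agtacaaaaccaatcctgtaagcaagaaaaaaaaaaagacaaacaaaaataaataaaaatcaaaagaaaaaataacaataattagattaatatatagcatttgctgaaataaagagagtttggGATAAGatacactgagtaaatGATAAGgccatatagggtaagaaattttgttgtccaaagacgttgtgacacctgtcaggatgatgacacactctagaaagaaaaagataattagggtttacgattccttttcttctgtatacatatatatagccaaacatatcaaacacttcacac
UNE15: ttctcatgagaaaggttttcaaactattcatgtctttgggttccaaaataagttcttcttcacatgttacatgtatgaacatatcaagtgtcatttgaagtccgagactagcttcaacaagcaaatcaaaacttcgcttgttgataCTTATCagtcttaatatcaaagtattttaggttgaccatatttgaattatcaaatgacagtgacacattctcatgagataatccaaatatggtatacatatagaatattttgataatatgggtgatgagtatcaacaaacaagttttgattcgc

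The window of AT4G13575 held GATAAG at bases -127 and -106 from the start, and that of UNE15 held its reverse complement at base -104.

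The 6 members of the NDH complex group were between 9.06-fold and 41.4-fold lower in the epl1a/b-labelled libraries. NdhO, a subunit of the stroma-facing arm, had 190.4 and 141 normalised counts in the epl1a/b-labelled libraries, against 4615 and 3785 in wild type, 25.4-fold lower, and had the highest wild type mean of the members, not corrected for gene length. NdhU, a J-domain subunit near the ferredoxin-binding site, had 143 and 129 in the epl1a/b-labelled libraries, against 1683 and 1478 in wild type, 11.6-fold lower. PnsL2, a PsbQ-like subunit on the lumen side, had 164 and 144 in the epl1a/b-labelled libraries, against 1473 and 1314 in wild type, 9.06-fold lower. In each of the 3 subunit genes the 2 libraries of a genotype stood within 1.5-fold of each other.

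CRR3, named for the loss of NDH activity in its mutant, had 61.6 and 42.4 normalised counts in the epl1a/b-labelled libraries, against 1022 and 946 in wild type, 18.9-fold lower. NDF5, which is needed for NDH activity, had 23.3 and 32.6 in the epl1a/b-labelled libraries, against 628 and 539 in wild type, 20.9-fold lower. PQL3, another PsbQ-like protein, had 3.4 and 6.2 in the epl1a/b-labelled libraries, against 204 and 194 in wild type, 41.4-fold lower. For PnsL2 and NDF5, 25.6% and 28.3% of the exon bases overlap another gene. The sources used here do not state strand use in counting, so reads of the partner gene cannot be told apart there.

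The other NDH genes show how far the loss extended beyond the rule. They were gathered by annotation text after the members had been seen, which gave 29 genes, 28 of them tested. NdhN, a subunit gene whose id the rule leaves out, had 9.52 and 12.3 normalised counts in the epl1a/b-labelled libraries, against 1682 and 1472 in wild type. Of the 21 tested genes that did not meet the rule, 20 were lower by limma and 0 higher, against 24.1% lower and 22.5% higher over all genes, with a median log2 difference of -1.90. CRR7, with 38.8 and 25.9 in the epl1a/b-labelled libraries against 363 and 277 in wild type, had the most negative of these at -3.28. CRR2, a pentatricopeptide repeat protein for plastid RNA processing, was the 1 not called, with 289.7 and 323 in the epl1a/b-labelled libraries against 315 and 331 in wild type.

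Both members annotated as photosystem proteins stood near the limit of the rule. AT1G49975, annotated as the N subunit of photosystem I, had 76.0 in each of the epl1a/b-labelled libraries, against 647 and 642 normalised counts in wild type, 8.48-fold lower. PSBP-2, a relative of the oxygen-evolving protein PSBP-1 of photosystem II, had 14.8 and 14.9 in the epl1a/b-labelled libraries, against 131 and 129.7 in wild type, 8.78-fold lower. Replicates of these genes were nearly identical within a genotype.

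Enzymes formed the largest group, with 17 members. MRN1, the marneral synthase that makes a root triterpene, had 38.4 and 41.1 normalised counts in the epl1a/b-labelled libraries, against 568 and 833 in wild type, 17.6-fold lower. Its 2 pathway partners lie close to it on chromosome 5 and were looked up after its values were seen. CYP71A16 had 171 and 247 in the epl1a/b-labelled libraries, against 429.9 and 494 in wild type, with a log2 difference of -1.16, and was lower by limma. CYP705A12 had 77.3 and 98.3 in the epl1a/b-labelled libraries, against 163 and 259 in wild type, a difference of -1.23, and was also lower by limma. The partners were not chosen by the rule, while MRN1 was.

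CYP82C4, a cytochrome P450 that hydroxylates coumarins secreted by iron-deficient roots, had 0 reads in both epl1a/b-labelled libraries, against 39.5 and 93.0 normalised counts in wild type, and was at least 25.3-fold lower against the floor. CYP71B35, another P450, had 16.0 and 7.63 in the epl1a/b-labelled libraries, against 444 and 409 in wild type, 36.1-fold lower, with 55.9-fold without epl1a/b replicate 1. AT2G12190, also a P450 gene, had 0.862 and 0.863 in the epl1a/b-labelled libraries, against 36.9 and 32.2 in wild type, or 2 reads against 66. Its ratio was 0.0253 (95% exact interval 0.003 to 0.0951), and 24.8% of its 50-base exon words occur elsewhere in the genome, so its counts are uncertain.

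XDH2, a xanthine dehydrogenase of purine breakdown, had 24.8 and 13.7 normalised counts in the epl1a/b-labelled libraries, against 405 and 399 in wild type, 20.9-fold lower. PIMT2, which repairs damaged aspartyl residues in proteins, had 5.02 and 12.5 in the epl1a/b-labelled libraries, against 157 and 147 in wild type, 17.4-fold lower, with 30.3-fold without epl1a/b replicate 2. AT4G18810, a Rossmann-fold protein gene, had 146 and 114 in the epl1a/b-labelled libraries, against 2126 and 2026 in wild type, 15.9-fold lower. Wild type replicates of these 3 genes were close to each other, while PIMT2 differed by 2.48-fold between the epl1a/b-labelled libraries.

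AT4G12830 and AT1G27480 encode proteins of the α/β-hydrolase superfamily. AT4G12830 had 48.4 and 36.4 normalised counts in the epl1a/b-labelled libraries, against 1103 and 952 in wild type, 24.2-fold lower. AT1G27480 had 86.5 and 87.4 in the epl1a/b-labelled libraries, against 1151 and 1011 in wild type, 12.4-fold lower. AT3G47040 and AT3G47050 are neighbouring glycosyl hydrolase genes, 782 bases apart on chromosome 3. AT3G47040 had 0.862 and 0.863 in the epl1a/b-labelled libraries, against 67.6 and 68.5 in wild type, or 2 reads against 130. AT3G47050 had 0 and 0.892 in the epl1a/b-labelled libraries, against 34.9 and 40.4 in wild type, or 1 read against 72. The ratios were 0.0128 (95% exact interval 0.00154 to 0.0473) for AT3G47040 and 0.0116 (0.00029 to 0.0667) for AT3G47050.

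AT1G24320, a six-hairpin glycosidase gene, had 0 and 2.71 normalised counts in the epl1a/b-labelled libraries, against 77.3 and 102 in wild type, a ratio of 0.0146 (95% exact interval 0.00299 to 0.0435). AT2G47880, a glutaredoxin gene, had 0.892 and 0 in the epl1a/b-labelled libraries, against 38.2 and 55.9 in wild type, a ratio of 0.00928 (0.000232 to 0.053), and 36.0% of its exon bases overlap another gene. Both rest on 3 reads or fewer over the epl1a/b-labelled libraries. The other 4 enzyme genes, named after their values were seen, were a methyltransferase (AT2G32160, 15.5-fold lower), a cyclopropane-fatty-acid synthase relative (AT3G23480, 11.3-fold), an oxidoreductase (AT5G05320, 19.6-fold, with 1.74 in each epl1a/b-labelled library against 30.7 and 37.3 in wild type) and an N-acetyltransferase relative (AT5G47900, 14.7-fold).

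Among 3 transport genes, AT5G59250, of the major facilitator sugar transporter type, had 55.8 and 59.5 normalised counts in the epl1a/b-labelled libraries, against 1467 and 1550 in wild type, 26.2-fold lower. AT5G19500, a tryptophan and tyrosine permease gene, had 22.7 and 21.8 in the epl1a/b-labelled libraries, against 478 and 485 in wild type, 21.6-fold lower. VSR5, a vacuolar sorting receptor, had 7.85 and 7.86 in the epl1a/b-labelled libraries, against 67.6 and 71.6 in wild type, 8.86-fold lower. Replicates lay close together in all 3.

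Of 3 transcription factor genes, BBX27, a B-box zinc finger protein, had 64.0 and 52.2 normalised counts in the epl1a/b-labelled libraries, against 721 and 574 in wild type, 11.1-fold lower. NIG1, a basic helix-loop-helix factor, had 21.2 and 13.8 in the epl1a/b-labelled libraries, against 175 and 171 in wild type, 9.91-fold lower. LBD26, of the lateral organ boundaries family, had 3.43 and 5.29 in the epl1a/b-labelled libraries, against 76.5 and 137 in wild type, 24.4-fold lower. The wild type libraries of LBD26 differed by 1.79-fold.

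The receptor and defence group held 6 genes. AT1G66100, encoding a thionin, a small antimicrobial peptide, had 77.9 and 72.4 normalised counts in the epl1a/b-labelled libraries, against 973 and 825 in wild type, 12-fold lower. AT3G48080 lies beside EDS1 and resembles this hub of plant immunity. It had 1.8 and 0 in the epl1a/b-labelled libraries, against 56.3 and 101 in wild type, or 2 reads against 151. Its ratio was 0.0111 (95% exact interval 0.00133 to 0.0406).

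AT5G40060, a nucleotide-binding leucine-rich repeat (NLR) resistance gene, had 14.3 and 4.98 normalised counts in the epl1a/b-labelled libraries, against 258 and 256 in wild type, 26.7-fold lower, with 51.6-fold without epl1a/b replicate 1. CRK27, a cysteine-rich receptor-like kinase, had 5.17 and 7.04 in the epl1a/b-labelled libraries, against 119 and 137 in wild type, 21.0-fold lower. AT5G16900, a leucine-rich repeat kinase gene, had 1.77 and 0.838 in the epl1a/b-labelled libraries, against 61.2 and 58.1 in wild type, a ratio of 0.022 (95% exact interval 0.00446 to 0.0659). The kinase-family gene AT3G61080, whose annotation names no receptor or defence role, was the least reduced of the group at 9.37-fold.

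AT1G13650, an uncharacterised protein gene, had the most negative log2 difference. It had 0 and 0.892 normalised counts in the epl1a/b-labelled libraries, against 952 and 959 in wild type, or 1 read against 1826, a ratio of 0.000457 (95% exact interval 1.16e-05 to 0.00255). AT3G55240, of a plant family of unknown function, had 75.6 and 23.3 in the epl1a/b-labelled libraries, against 974 and 1729 in wild type, 27.3-fold lower, with 57.9-fold without epl1a/b replicate 1 and 17.9-fold without replicate 2. Its replicates differed by 3.24-fold between the epl1a/b-labelled libraries and by 1.78-fold in wild type. AT1G64795 had 3.51 and 2.58 in the epl1a/b-labelled libraries, against 229.8 and 177 in wild type, 66.7-fold lower, but 70.6% of its exon bases overlap another gene. The noncoding AT4G12917 had 1.8 and 0 in the epl1a/b-labelled libraries, against 71.8 and 76.7 in wild type, a ratio of 0.0118 (0.00141 to 0.0433). AT2G14247 had 26 and 3.84 in the epl1a/b-labelled libraries, against 263 and 215 in wild type, 16-fold lower, with 62.2-fold without epl1a/b replicate 1 and 9.17-fold without replicate 2. Of this gene 21.3% of the exon bases overlap a neighbour. AT1G78995 (15.6-fold) and AT5G27290 (12.3-fold), the latter annotated only as a stress regulated protein, complete the 7 genes grouped as unknown or noncoding by product annotation.

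The remaining 8 annotated genes differ in kind. AT3G59250, an F-box gene, had 0 reads in both epl1a/b-labelled libraries, against 51.6 and 43.6 normalised counts in wild type, and was at least 18.2-fold lower against the floor. AT3G19800, whose product is annotated as a putative ubiquitin ligase, had 118 and 85 in the epl1a/b-labelled libraries, against 1202 and 1137 in wild type, 11.5-fold lower. AT2G44920, a tetratricopeptide repeat-like protein gene, had 56.6 and 63.1 in the epl1a/b-labelled libraries, against 872 and 890.2 in wild type, 14.7-fold lower. None of the 3 genes had replicates more than 1.5-fold apart. FLA6, a cell-surface arabinogalactan protein, was 10.9-fold lower, with 11.3 and 12.3 in the epl1a/b-labelled libraries against 139 and 118 in wild type. AT3G09160, AT5G07650 and AT4G27360, annotated as an RNA-binding, an actin-binding and a dynein light chain protein, were 25.6-, 28.3- and 9.2-fold lower. The F-box gene AT3G18320 was 18.4-fold lower, with 28.6-fold without epl1a/b replicate 2, and 33.2% of its 50-base exon words occur elsewhere in the genome.

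The dark and light libraries were not used to choose the members, but the rule required at least 30 normalised counts in wild type seedlings grown with light. With 1 library each there is no test and no replicate check, and the table was scaled apart from the genotype table, so no level is compared across them. Of the 56 members with at least 10 counts in all, 31 were at least 2-fold lower in dark than in light, or 55.4%, against 19.4% of the 21128 genes so measured. Those 21128 genes did not have to reach 30 in wild type. The share among genes that did was not computed, so the contrast is not matched for wild type level. A further 6 were at least 2-fold higher in dark, or 10.7%, against 15.8% of all genes, and 19 stayed within 2-fold. The median log2 ratio, dark over light, was -1.35 for the members and -0.01 for all genes. Leaving out the 6 genes of the chromosome 4 stretch, a check added after their positions were seen, left 25 lower and 6 higher. Of the 14 left-out ids, 13 could be measured and 10 were at least 2-fold lower in dark. Both not measured were members with nearly no counts, AT2G47880 with 0 in dark and 0 in light, and AT4G27360 with 0 in dark and 2 in light.

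The dark library also differed in material markers. The 4 seed markers summed to 3856 CPM (counts scaled by library size) in dark and 17.6 CPM in light, mostly CRA1, a seed storage protein. Shoot markers summed to 7479 CPM in dark and 33884 CPM in light, with GL1 at 0 CPM in dark. Root markers summed to 5025 CPM in dark and 2995 CPM in light. A difference in stage or material between the 2 libraries was not tested as part of the members' ratios.

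The shift to lower values in dark was widest in the chromosome 4 stretch, where all 6 genes were at least 2-fold lower, with a median log2 ratio of -4.10. AT4G13575 had 3 counts in dark and 825 in light, a ratio of 0.00461 after scaling (95% exact interval 0.000948 to 0.0135). UNE15 had 2 counts in dark and 170 in light, a ratio of 0.0149 (0.00179 to 0.0547). HTA4 had 6 counts in dark and 113 in light, 14.9-fold lower in dark. These 3 genes were thus close to lost in the dark library as well. AT4G13572 had 4 counts in dark and 138 in light, AT4G13577 had 15 in dark and 92 in light, and AT4G06115 had 0 in dark and 32 in light.

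Of the 6 NDH genes, 5 were at least 2-fold lower in dark, with a group median of -2.05. NdhU had 89 counts in dark and 1317 in light, 11.7-fold lower in dark. PnsL2 had 160 counts in dark and 1269 in light, 6.26-fold lower. NDF5 had 125 counts in dark and 840 in light, 5.3-fold lower. The sixth, NdhO, stood apart: it had 2347 counts in dark and 1508 in light and was 1.97 times as high in dark (95% exact interval 1.85 to 2.1). CRR3 had 264 counts in dark and 1099 in light, and PQL3 had 48 in dark and 148 in light.

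The most negative ratio of all members, a log2 value of -7.92, belonged to AT3G55240, with 1 count in dark and 847 in light, or a ratio of 0.0015 (95% exact interval 3.78e-05 to 0.00836). AT1G13650 had 5 counts in dark and 422 in light, 66.6-fold lower in dark. AT4G12830 had 21 counts in dark and 643 in light, 24.2-fold lower. The thionin gene AT1G66100 had 0 counts in dark and 47 in light, a ratio whose 95% exact interval ends at 0.103. NIG1 had 0 in dark and 36 in light, a ratio whose interval ends at 0.137. AT5G59250 had 473 counts in dark and 3347 in light, 5.59-fold lower, and CYP82C4 had 8 in dark and 146 in light, 14.4-fold lower. Lower values in dark were therefore found in several roles, but to different extents. At least 2-fold lower were 5 of 7 unknown or noncoding genes, with 1 higher and a median log2 ratio of -3.26. In receptor and defence it was 3 of 6, with 0 higher (median -0.68). Among 16 measured enzymes 5 were lower and 3 higher (-0.23), and among 3 transcription factors 1 was lower and 0 higher (-0.01). Over all genes 19.4% were lower and 15.8% higher.

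The members that went the other way were few. MRN1 had 5892 counts in dark and 524 in light and was 14.2 times as high in dark (95% exact interval 13.0 to 15.6). Its cluster partners CYP71A16, with 1200 counts in dark and 266 in light, and CYP705A12, with 959 in dark and 160 in light, had log2 ratios of 2.50 and 2.91. AT1G64795 had 662 counts in dark and 28 in light, 29.9 times as high in dark, with the overlap given above. AT5G05320 had 214 counts in dark and 66 in light, FLA6 had 182 in dark and 80 in light, and AT3G09160 had 206 in dark and 91 in light. The methyltransferase gene AT2G32160 was the sixth, with 56 counts in dark and 26 in light. These genes were low in the epl1a/b-labelled libraries, as the rule requires of every member, and high in the dark library. Whether the 2 comparisons order the members alike was not tested.

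Most other members were lower in dark or stayed within 2-fold. AT4G18810 had 334 counts in dark and 2126 in light, and AT5G27290 had 63 in dark and 784 in light. AT2G44920 had 322 counts in dark and 1306 in light, and AT3G19800 had 168 in dark and 678 in light. AT1G49975 had 246 counts in dark and 855 in light, and AT1G27480 had 144 in dark and 766 in light. All 6 of these genes were at least 2-fold lower in dark. So were AT5G19500 with 31 counts in dark and 470 in light, AT1G78995 with 62 in dark and 383 in light, and AT5G40060 with 58 in dark and 210 in light. AT3G59250 with 25 in dark and 123 in light, AT5G16900 with 23 in dark and 64 in light, AT3G47050 with 9 in dark and 29 in light and AT4G12917 with 1 in dark and 37 in light complete the 31.

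Within 2-fold, besides NdhO, lay XDH2, with 697 counts in dark and 1259 in light, and BBX27, with 644 in dark and 792 in light. AT3G61080 had 423 counts in dark and 656 in light, CYP71B35 had 135 in dark and 248 in light, and AT5G47900 had 87 in dark and 202 in light. PIMT2, with 187 in dark and 143 in light, and AT1G24320, with 111 in dark and 78 in light, leaned the other way. The rest of those within 2-fold had between 7 and 131 counts in dark and between 4 and 160 in light, as did the EDS1-like AT3G48080 with 92 in dark and 77 in light and CRK27 with 105 in dark and 107 in light.

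**Figure D3:**
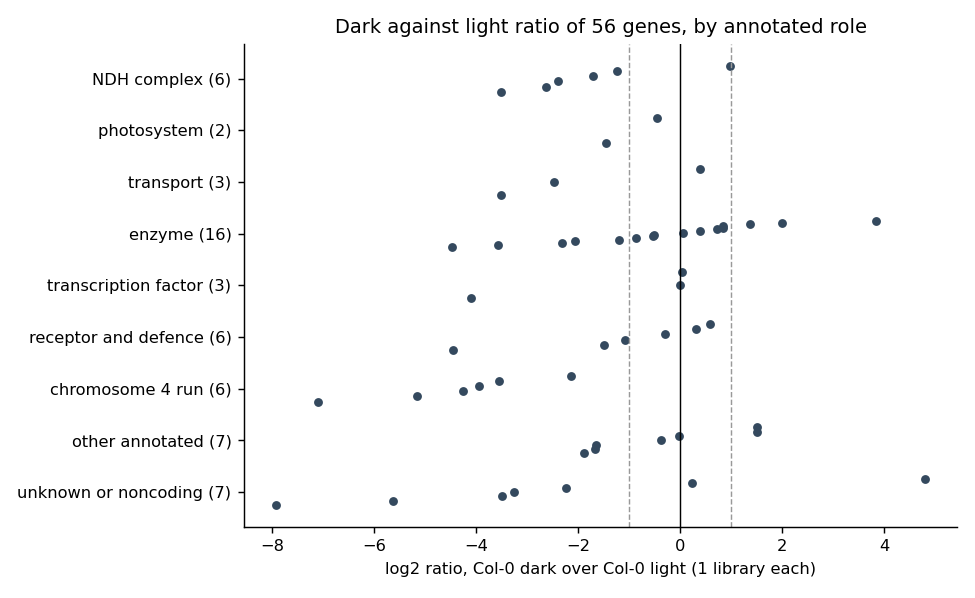
Log2 ratio of Col-0 dark over Col-0 light for the 56 members with at least 10 counts in all, 1 point per gene, in rows by annotated role with the number of genes, and dashed lines at 2-fold. All 6 points of the chromosome 4 row and 5 of 6 in the NDH row lie left of the left dashed line, and the points furthest right are AT1G64795 at 4.80 and MRN1 at 3.83.

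The loss was compared with the closest protein relative of each gene, which the rule did not use. A relative sharing at least 40% of aligned residues was found for 36 members, 35 of these relatives were not members, and 29 could be tested. By limma 6 were lower, 5 higher and 18 not called. The share lower was 20.7%, against 24.1% of all genes, and the median log2 difference was -0.06. Identity was taken over aligned residues only, so some kept relatives match a small part of a protein. AT3G29173, for one, has 50 residues against 505 in AT5G19500. The limit also left out longer relatives of lower identity, in both directions. AT1G52510, 32.2% identical to AT4G12830, had a log2 difference of -3.07, and AT1G14130, 23.1% identical to AT3G61080, one of 0.94. XDH1, which shares 93.1% of residues with XDH2 and lies beside it, had 1123 and 1149 normalised counts in the epl1a/b-labelled libraries, against 1250 and 1336 in wild type, and was not called. EDS1, 74.0% identical to AT3G48080, had 486 and 304 in the epl1a/b-labelled libraries, against 514 and 589 in wild type, and was not called. HTA11, 61.3% identical to HTA4, had 394 and 305 in the epl1a/b-labelled libraries, against 388 and 388 in wild type, and was not called. A call that misses the threshold does not show equal levels, but each of these 3 relatives kept at least 304 normalised counts in every epl1a/b-labelled library.

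CYP71B34, 83.4% identical to its neighbour CYP71B35, was lower by limma with a log2 difference of -0.28. PSBP-1, 92.8% identical to PSBP-2 over the aligned residues, had 23922 and 21742 normalised counts in the epl1a/b-labelled libraries, against 58034 and 56984 in wild type, and was lower at -1.33. PIMT1, 62.6% identical to PIMT2, was not called at -0.38. Among relatives that were higher, BARS1, a triterpene cyclase 74.6% identical to MRN1, had 60.7 and 43.3 in the epl1a/b-labelled libraries, against 9.49 and 8.31 in wild type, a log2 difference of 2.40. FLA13, 55.6% identical to FLA6, was higher at 1.07. The direction of a relative therefore varied from pair to pair. On equal library totals 13.8% of relatives were lower and 34.5% higher, against 15.9% and 38.2% of all genes, with a median of 0.11.

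**Figure D4:**
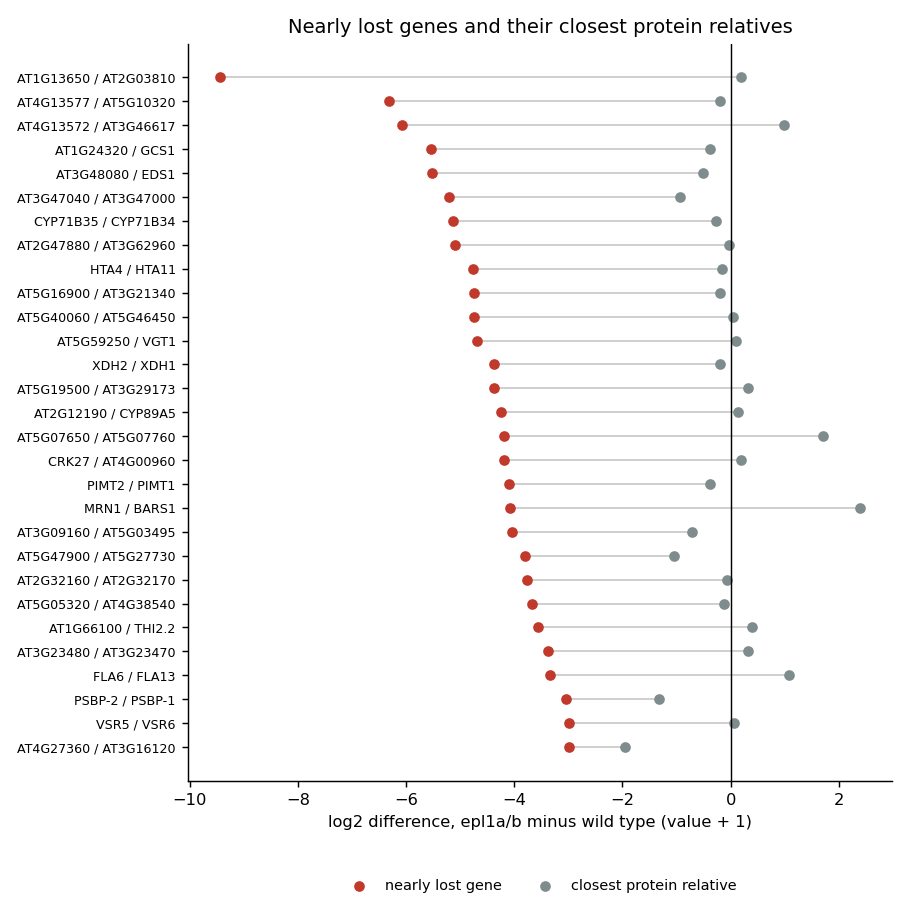
Log2 difference, epl1a/b minus wild type on normalised counts plus 1, for members (red) and their closest protein relatives that were tested (grey), joined by a line, in order of the member's value. The grey points run from -1.96 (AT3G16120) to 2.40 (BARS1) around their median of -0.06, and each red point lies further left than its grey partner, as the choice of the members by this measure makes likely.

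Neighbouring genes were compared in the same way. Next to the members lie 108 other listed genes, of which 81 could be tested. By limma 23 were lower, 17 higher and 41 not called. The share lower was 28.4%, against 24.1% of all genes, with a median log2 difference of -0.14 that became 0.10 on equal library totals, where 15.4% of 78 neighbours were lower and 39.7% higher, against 15.9% and 38.2% of all genes. NdhO lies 82 bases from AT1G74875, an F-box gene with 0.892 and 0 normalised counts in the epl1a/b-labelled libraries, against 31.6 and 22.9 in wild type, which only the limit of 30 keeps out of the set. On the other side, ARR15, a cytokinin response regulator, had 21.0 in each of the epl1a/b-labelled libraries, against 84.5 and 93.3 in wild type, and was lower at -2.03. The neighbours of AT1G13650 did not follow it: AT1G13640 was not called at 0.10 and AT1G13670 was higher at 1.59.

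Promoter letters were examined for 7 short motifs, each searched on both strands in the windows from 250 bases before to 50 after the start, with none of the motifs contained in another. GATAAG occurred in 21 of the 58 member windows, or 36.2%, against 14.8% of all 32546 windows and 14.8% of the 17988 windows of genes at 30 or more in wild type. The 3 further windows are shown because they belong to the members with the highest wild type level (NdhO), the transporter with the largest fold (AT5G59250) and the member with the most negative log2 difference (AT1G13650). They are chr1:28131028-28131327 (minus strand), chr5:23903622-23903921 (plus) and chr1:4682333-4682632 (minus) in RefSeq TAIR10.1, with GATAAG or CTTATC in capitals. The matches in NdhO and AT5G59250 lie after the annotated start, at bases 5 and 31 from it. The window of AT1G13650 holds neither.
NdhO: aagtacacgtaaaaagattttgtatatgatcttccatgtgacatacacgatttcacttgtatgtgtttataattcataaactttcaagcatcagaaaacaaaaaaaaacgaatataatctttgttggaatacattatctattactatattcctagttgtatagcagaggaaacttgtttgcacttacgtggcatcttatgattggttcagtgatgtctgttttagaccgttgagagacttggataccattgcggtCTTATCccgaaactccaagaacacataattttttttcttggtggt
AT5G59250: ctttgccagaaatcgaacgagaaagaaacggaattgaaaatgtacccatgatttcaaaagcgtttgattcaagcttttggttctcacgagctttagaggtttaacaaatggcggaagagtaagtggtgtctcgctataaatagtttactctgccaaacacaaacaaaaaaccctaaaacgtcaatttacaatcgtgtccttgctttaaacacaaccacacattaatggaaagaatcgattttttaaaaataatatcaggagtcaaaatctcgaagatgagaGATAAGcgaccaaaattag
AT1G13650: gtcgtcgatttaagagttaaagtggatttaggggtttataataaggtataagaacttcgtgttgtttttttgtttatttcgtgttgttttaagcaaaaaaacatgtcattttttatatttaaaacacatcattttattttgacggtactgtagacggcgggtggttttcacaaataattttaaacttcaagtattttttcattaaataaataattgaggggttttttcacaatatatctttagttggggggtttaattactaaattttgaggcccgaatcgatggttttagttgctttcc

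The 21 windows held 26 matches, 18 of them before the start, and 5 members had 2 or more. Outside the chromosome 4 stretch 17 of 52 windows held the motif, or 32.7%, and within it 4 of 6. By role the share was lowest, at 16.7%, in the NDH complex (1 of 6, the window of NdhO) and in receptor and defence (1 of 6). The window in the latter was that of AT3G61080, the kinase gene whose annotation names no receptor or defence role. It was highest in the photosystem role, at 2 of 2. Among all genes called lower in epl1a/b the share was 18%, among those called higher 12.9%, and among the 67 genes that met the rule with the genotypes exchanged 23.9%. The left-out ids had it in 28.6% of 14 windows. The motif did not follow the dark ratio: 35.5% of the 31 members at least 2-fold lower in dark held it, and 37.0% of the other 27 members. In all genes at least 2-fold lower in dark the share was 16.7%.

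The other 6 motifs were no more frequent in the members than in all windows by more than a few percentage points. The G-box CACGTG occurred in 8.62% of members and 7.11% of all windows, the W-box core TTGACC in 13.8% of members and 13.8% of all, and TGGGCC, a site II element, in 15.5% of members and 14.3% of all. The evening element AAAATATCT occurred in 1.72% of members and 2.64% of all, the cold-response core GCCGAC in 3.45% of members and 3.2% of all, and the telo-box AAACCCTA in 5.17% of members and 6.19% of all. A match is a run of letters, not a bound site, and its part in the expression values was not tested.

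**Figure D5:**
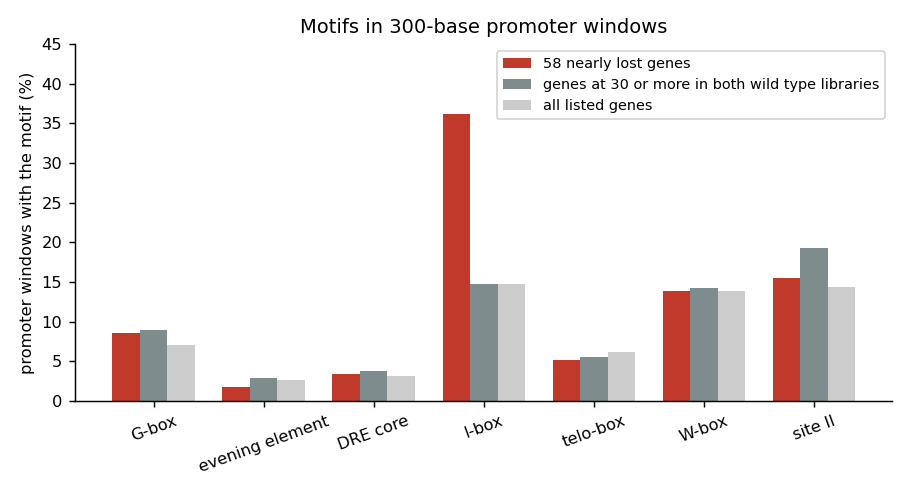
Share of 300-base promoter windows, in percent, that hold each of 7 motifs on either strand, with bars for the 58 members (red), genes at 30 or more in both wild type libraries (dark grey) and all listed genes (light grey). The I-box core GATAAG stands at 36.2% in the members and 14.8% in both other sets, while the bars of the other 6 motifs lie closer together.

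The members were set beside 10 gene lists, of which only 1 holds a member, CYP82C4. Their counts are to be read against 24.1% lower and 22.5% higher over all genes, with a median of 0.02. Of 35 tested iron deficiency genes, 21 were lower by limma and 7 higher, with a median log2 difference of -1.0, and 6 of the genes in this list are ids that the rule leaves out. Of 27 tested chlorophyll and antenna genes, 25 were lower and 0 higher with a median of -1.87, and 5 of them are left-out ids. The left-out ids and CYP82C4 met the rule, so their lower calls within these counts follow from that choice. Counts and medians of both lists without them are not given here. Among shoot markers 3 of 5 were lower and 0 higher (median -0.85), among root markers 1 was lower and 1 higher (-0.22), and among 4 seed markers 0 were lower and 2 higher (1.18). Cold-response genes counted 4 lower and 0 higher of 10 (-0.28), and clock genes 4 lower and 5 higher of 11 (0.68). Copper and zinc genes counted 8 lower and 7 higher of 19 (-0.04), sulphur genes 2 lower and 1 higher of 12 (-0.18), and aliphatic glucosinolate genes 1 lower and 7 higher of 11 (0.55). On equal library totals the medians of the copper and zinc, sulphur, root and cold lists were 0.20, 0.06, 0.02 and -0.05, against 0.25 over all genes, so no direction is given for those 4.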

How the data were processed

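Processing was described by the submitters' processing notes, which name HISAT2, featureCounts, edgeR and the TAIR10 build without versions or settings, and the labels' protocols mention single-end 50 and paired-end 150 base reads without saying which library had which. The genotype table was deposited as a non-negative signal per gene, which the file headers name as normalised, and the dark and light table as unscaled read counts, per the file headers. All columns were mapped (0 left unmapped). Inverting edgeR's library-size equalisation (common dispersion 0.00642) gave whole reads for 32548 of 32548 genes, 100% within a tolerance of 1e-06. The depth limits single reads: a floor of 3 reads per library was used, and intervals are 95% exact (Clopper-Pearson) and cover counting error only.

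Genotypes were compared with limma 3.58.1 (R 4.3.3; trend and robust) on log2(value + 1). Libraries are the unit of replication, 2 per genotype. Dark and light were compared as a ratio after edgeR 4.0.16 TMM scaling with a prior count of 2. Coordinates, exons and promoters come from RefSeq TAIR10.1, in which all listed ids were found. Relatives were found by shared 5-residue words and global alignment in Biopython 1.88 (Python 3.11.15). Figures used matplotlib 3.10.9. Members and lists (10, with 142 entries) were chosen with earlier results of these data known, and the roles, the NDH gene search and the windows shown were chosen after values were seen. Named genes are those with 0 or 1 read in an epl1a/b library, the 12 smallest ratios, the 12 highest wild type means, the 5 highest and 5 lowest dark ratios, those nearest the limits, and those in a list or near another member. Others were named after their values were seen. Alternatives covered the limits of the rule, pseudocount, filter, scaling, replicate block, edgeR's quasi-likelihood test, DESeq2 1.42.0 and leaving out each library. Some promoter windows are not reported here.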

Additional observations from a re-analysis of the deposited data

How the results depend on the processing

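The set grew to 260 genes with a limit of 1/4 and shrank to 30 with 1/16. With a minimum of 100 in wild type it held 36 genes, all of them members. Reads on equal library totals gave 46 genes, all of them members. Leaving out 1 library gave 65 to 95 genes, with 95 without epl1a/b replicate 1. On equal library totals 3677 genes were lower and 8823 higher, with the median of all genes at 0.25 in place of 0.02. Leaving out 1 library gave 3836 to 4147 lower calls and 2660 to 3689 higher calls. Of these, 3288 higher calls came without wild type replicate 1, and 2905 and 2660 when epl1a/b replicate 1 or 2 was the one left out, and the lone library is then assumed to vary like the other genotype. edgeR's quasi-likelihood test on recovered reads called 5379 lower and 4885 higher, and DESeq2 4411 and 3847. With a pseudocount of 0.1, on equal library totals and with each library left out, log2 differences of the 58 members ran from -11.57 to -2.76, their sign being fixed by the rule. The members at least 2-fold lower in dark numbered 25 to 31, and those at least 2-fold higher 6 to 8.

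The shared replicate number does not pair the samples by any label, and the deviations of same-numbered libraries had a correlation of -0.144 over genes. With the replicate block 5099 genes were lower and 4578 higher. The crossed pairing, added after seeing the data, gave 5585 lower and 5353 higher. With 2 libraries per genotype, outliers among libraries could not be examined, and with 1 dark and 1 light library no spread was measured.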
